A study of Danio rerio with 15 samples.

Results

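The genes described here are linked to yellow pigment in fish, and several also serve other cells. They are 10 genes of pteridine synthesis and of xanthophores, the yellow pigment cells, namely gch2, pts, xdh, aox5, slc2a15b, csf1ra, pax7a, pax7b, sox5 and mycbp2. They were taken by symbol from the 36351 genes of the authors' deposited table, and each symbol matched 1 entry. They were chosen by symbol with the fold changes and p-values of the same TCPMOH comparison in view. Those values are therefore a description and not a test of the list.

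The series measured messenger RNA of whole AB wild-type zebrafish pooled at 100 hours post fertilization (hpf), with 8 to 10 animals a pool. Treatment was through the water for the last 4 hours, from 96 hpf on. The control pools received 0.01% v/v dimethyl sulfoxide (DMSO, the solvent), and the others 50 nM tris(4-chlorophenyl)methane (TCPM) or 50 nM tris(4-chlorophenyl)methanol (TCPMOH), which carries a hydroxyl group on the central carbon. There are 5 pools in each of the 3 groups. TCPM was not analysed here. The comparison of TCPMOH with DMSO is given by the authors' own DESeq2 result, which holds 0 columns of values per pool. Each gene is therefore shown by its base mean (the mean DESeq2-normalized count over the fitted libraries, which may or may not include those of TCPM), its log2 fold change and the standard error (SE) of that change. The table's header does not name the numerator. Negative values are read below as lower with TCPMOH, with DMSO as the reference, and under the other reading every direction would swap. Genes that differ in sign stand on opposite sides under either reading.

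Xanthophores come from the neural crest and colour the larva yellow with pteridines, which are made from GTP. GTP cyclohydrolase opens the GTP ring, 6-pyruvoyltetrahydropterin synthase acts next, and later enzymes lead to sepiapterin and related pigments or to tetrahydrobiopterin, the cofactor of aromatic amino acid hydroxylases. Pax7 transcription factors specify the lineage, and the receptor Csf1ra is needed for the cells to spread and persist.

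The pteridine enzyme genes gch2 and pts stood on the opposite side from the Pax7 gene pax7b. In the authors' deposited table gch2 and pts were lower with TCPMOH and pax7b was higher, and the other 7 genes did not pass. A gene is called changed here where the authors' DESeq2 Wald test gave it a Benjamini-Hochberg adjusted p below 0.05, over 19257 tested genes. Of these tested genes 13.0% reached an unadjusted p under 0.05 and 49.4% had a positive fold. All counts of listed genes below stand beside these shares. All 10 genes were tested, and 3 of them were called, beside 2.68% of all tested genes per the authors' deposited table. By direction, 2 were called lower beside 1.92% of tested genes, and 1 was called higher beside 0.758%. Because the same comparison was in view when the genes were chosen, nothing is read from these shares. The signs were mixed per the authors' deposited table, with 6 positive and 4 negative values and a median log2 fold change of 0.07, against a median of -0.0016 over all tested genes.

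**Figure D1:**
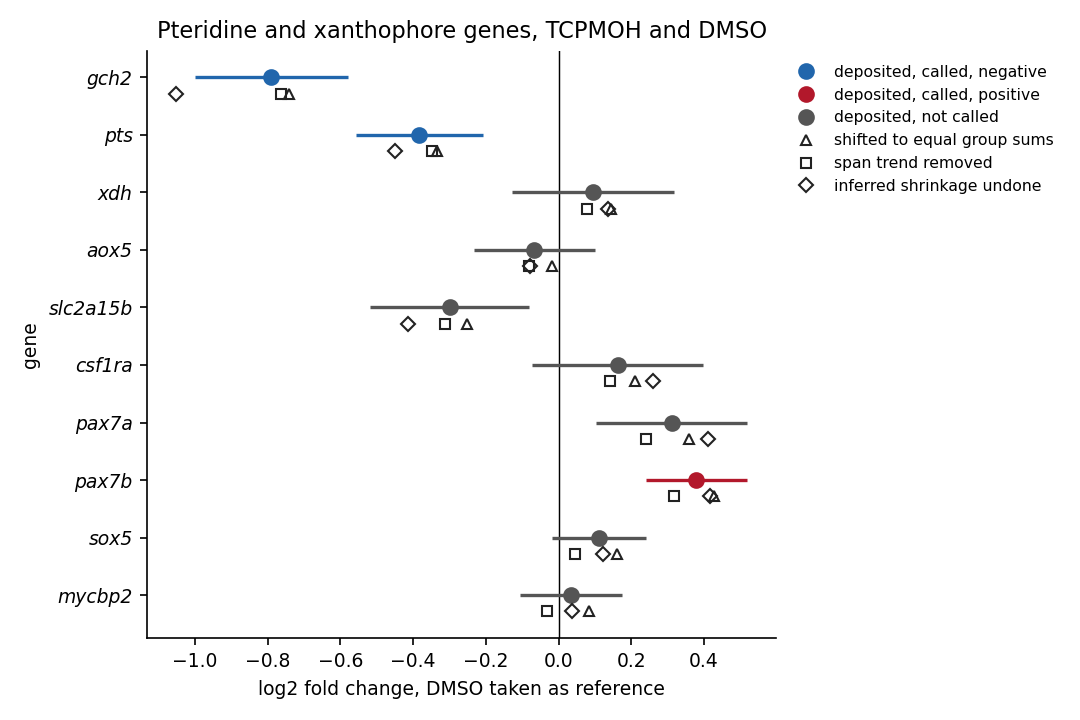
Log2 fold change (x axis) of each of the 10 genes (y axis), with DMSO taken as the reference. Filled circles are the deposited values with 95% intervals from the deposited SE, and open symbols are the values under 3 other treatments of the folds. The intervals of gch2, pts and slc2a15b lie below 0, those of pax7a and pax7b above 0, and the other 5 include 0.

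The first enzyme showed the largest fold of the 10. The gene gch2 encodes a GTP cyclohydrolase of pigment cells, and per the authors' deposited table it had a base mean of 1205 and a log2 fold change of -0.79 (SE 0.107; adjusted p = 1.82e-10 by DESeq2). Its level with TCPMOH was 0.578 of that with DMSO, with a 95% interval of 0.50 to 0.67, computed from the authors' deposited table, or 1.73-fold higher under the other reading of the numerator. Since whole animals were sequenced, fewer pigment cells and less RNA per cell cannot be told apart. The gene ranked 20 by p among all tested genes. It lies on chromosome 12 from 25085751 to 25092570 on the plus strand, in coordinates whose build the sources used here do not give. The paralog gch1, which encodes the GTP cyclohydrolase of neurons and other tissues, stood at -0.02 per the authors' deposited table (SE 0.0983, 95% interval -0.21 to 0.17). The 2 paralogs were measured in the same pools, and the difference between them was not tested. The sign of gch1 turned positive, at 0.027, when all folds were shifted so that the groups' summed levels, rebuilt from base means and folds, were equal.

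The second enzyme was also lower. For pts, the 6-pyruvoyltetrahydropterin synthase gene, the authors' deposited table gives a base mean of 462 and a log2 fold change of -0.38 (SE 0.0888; adjusted p = 0.00186 by DESeq2). This corresponds to 0.767 of the DMSO level, with a 95% interval of 0.680 to 0.865, or a level 1.30-fold higher under the other reading. The gene lies on chromosome 12 from 311155 to 315034 on the minus strand, far from gch2. When the Wald statistics were divided by their own spread of 1.30, the call of pts was lost (adjusted p = 0.105 from the DESeq2 statistics), and those of gch2 and pax7b held (adjusted p = 1.49e-05 and 0.0106). The whole of pts lies inside a longer gene model on the same strand, CABZ01058222.1, which stood at -0.11 (SE 0.108; adjusted p = 0.723 by DESeq2) per the authors' deposited table. How reads were divided between these overlapping models is uncertain.

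No other tested gene of pteridine synthesis and recycling passed. Sepiapterin reductase, which completes tetrahydrobiopterin, is encoded by spra, and this gene stood at 0.01 (SE 0.116, 95% interval -0.22 to 0.23) per the authors' deposited table. The 12 genes listed for pteridine synthesis and recycling include 11 with an entry and 9 that were tested. Apart from gch2 and pts, 7 were tested, namely gch1, gchfr, spra, pcbd1, qdpra, qdprb1 and dhfr, so not all act after pts. Of these, 0 passed the authors' DESeq2 test, 5 were negative and 1 reached an unadjusted p under 0.05. That gene was qdprb1, a dihydropteridine reductase gene of cofactor recycling picked after seeing its value, at -0.27 (SE 0.0926; adjusted p = 0.0922 by DESeq2) per the authors' deposited table. The median of these 7 was -0.04, and it turned to 0.0049 after the shift to equal sums.

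The pteridine oxidases were not called. Xanthine dehydrogenase acts on purines and on pteridines, and its gene xdh had a base mean of 672 and a log2 fold change of 0.10 (SE 0.114, 95% interval -0.13 to 0.32; adjusted p = 0.774 by DESeq2) per the authors' deposited table. For aox5, an aldehyde oxidase gene used as a xanthophore marker, the authors' deposited table gives a base mean of 538 and a value of -0.07 (SE 0.0850, 95% interval -0.23 to 0.10; adjusted p = 0.791 by DESeq2). The interval of aox5 reaches down to -0.23, short of the values of gch2 and pts, and the differences between these genes were not tested. Its neighbour and relative aox6 stood at -0.06 (SE 0.0988) per the authors' deposited table. The ends of aox5 and aox6 overlap by 322 bp on opposite strands of chromosome 22, and the gene span of aox5 also holds the hatching enzyme genes he1.1, he1.2 and he1.3 on the other strand. The library kit keeps strand, per the labels' protocols, but no source used here gives the strand setting of the counting. Both enzymes need the molybdenum cofactor. Of 8 other tested genes of that enzyme family and of cofactor synthesis, 0 passed the authors' DESeq2 test and 1 reached an unadjusted p under 0.05. It was mocs3, a gene of cofactor synthesis, at -0.33 (SE 0.105; adjusted p = 0.0627 by DESeq2) per the authors' deposited table.

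The Pax7 regulators of the lineage had positive values. The authors' deposited table gives pax7b, which encodes a paired box factor of xanthophore fate, a base mean of 473 and a log2 fold change of 0.38 (SE 0.0706; adjusted p = 2.33e-05 by DESeq2). This is 1.30-fold higher with TCPMOH, with a 95% interval of 1.18 to 1.43, or 0.769 of the DMSO level under the other reading. The gene lies on chromosome 23 from 20862717 to 20939086 on the plus strand. Its paralog pax7a, with a base mean of 332, did not pass, at 0.31 (SE 0.106, 95% interval 0.10 to 0.52; adjusted p = 0.0908 by DESeq2) per the authors' deposited table. The intervals of the paralogs overlap, and their SEs differ. After the shift to equal sums pax7a passed as well, at 0.36 (adjusted p = 0.0322 from the DESeq2 statistics). It did not pass with the Wald statistics divided by their spread (adjusted p = 0.654 from the DESeq2 statistics). Nor did it pass with the trend of folds over gene span removed, as described below (adjusted p = 0.276 from the DESeq2 statistics). The related pax3a stood at 0.16 (SE 0.104; adjusted p = 0.534 by DESeq2) per the authors' deposited table.

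No change passed for the receptor or for the transporter. The receptor tyrosine kinase gene csf1ra, which macrophages also express, had a base mean of 345 and a value of 0.16 (SE 0.120, 95% interval -0.07 to 0.40; adjusted p = 0.602 by DESeq2) per the authors' deposited table. That SE is the highest of the 10 and close to the table's maximum of 0.124. Its paralog csf1rb, at a base mean of 47.1, has no adjusted p in the authors' deposited table and stood at 0.09 (SE 0.123). For slc2a15b, a sugar transporter family gene needed for pigment cell differentiation in medaka, the authors' deposited table gives a base mean of 199 and a value of -0.30 (SE 0.111, 95% interval -0.52 to -0.08). Its unadjusted p was 0.00704 and its DESeq2 adjusted p was 0.143, so it was not called. The paralog slc2a15a stood at -0.08 (SE 0.114) per the authors' deposited table.

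The last pair showed small values, and with pax7b they have the 3 lowest SEs of the 10 genes. The transcription factor gene sox5, which sets xanthophore against leucophore fate in medaka, had a base mean of 1782 and a value of 0.11 (SE 0.0662, 95% interval -0.02 to 0.24; adjusted p = 0.481 by DESeq2) per the authors' deposited table. For mycbp2, a large ubiquitin ligase gene known in zebrafish as esrom, whose mutants have pale xanthophores, the authors' deposited table gives 0.03 (SE 0.0712, 95% interval -0.10 to 0.17) at a base mean of 3521. Base means are not divided by transcript length, so they do not rank the 10 genes by level.

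**Figure D2:**
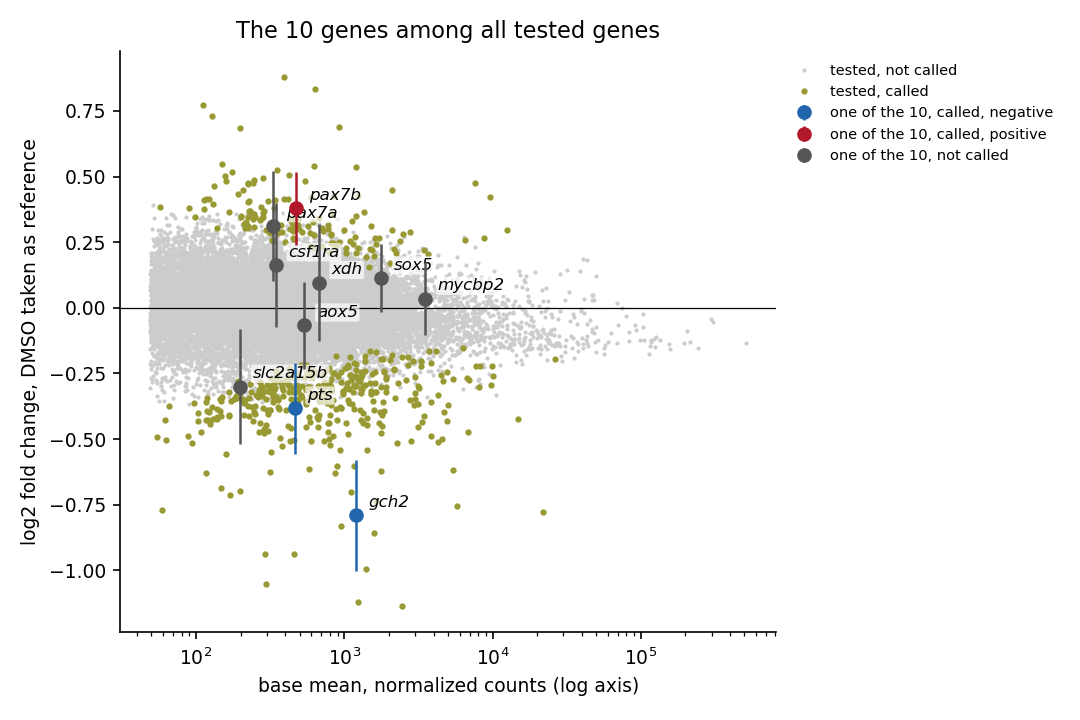
Log2 fold change (y axis, DMSO taken as the reference) against base mean in normalized counts (x axis, log scale) for the 19257 tested genes, with the 10 genes labelled and their 95% intervals drawn. gch2 lies far below the bulk of genes of its base mean, pts and pax7b lie at its edges, and xdh, aox5, sox5 and mycbp2 lie inside it.

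The deposited folds may be drawn toward 0 by a prior, but no source used here states whether one was applied. A normal prior with a standard deviation of 0.248 on the fold would leave no SE above 0.124, the largest in the authors' deposited table. That standard deviation was set from this SE, so the match is no evidence of a prior. The deposited SEs are also small at counts near 0. They were 0.0200 for he1.3 at a base mean of 0.197 and 0.0654 for crestin at 2.86. Both genes were picked after seeing their values, and what holds these SEs down was not tested. With such a prior undone, gch2 stood at -1.05, pts at -0.45 and pax7b at 0.42. The step keeps the deposited Wald statistics and adjusted p, so no call could change. Among the 10 genes, csf1ra moved most in proportion, to 0.26, or 1.6 times the deposited one. If a prior was used, the printed ratios and intervals carry it, and the printed folds lie nearer to 0 than the folds before it. Which of the 2 lies nearer to the true change was not tested.

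As deposited, the positive genes of the 10 are longer than the negative ones. Gene span runs from 33.9 to 241 kb in the 6 genes with a positive value. It runs from 3.88 to 31.7 kb in the 4 with a negative one. These ranges do not overlap, but the genes were chosen with these folds in view, so nothing is read from this. The border lies between xdh (33.9 kb) and aox5 (31.7 kb), neither of which has an established sign. Their intervals run from -0.13 to 0.32 and from -0.23 to 0.10. Across all tested genes the fold moved with span. The median log2 fold change per the authors' deposited table was -0.04 for the 5323 tested genes of up to 10 kb, and 36.7% of these were positive. It was 0.05 for the 1780 genes above 100 kb, of which 72.1% were positive. The running median over span was then removed, with its own median over the tested genes left in the folds. With this done gch2 stood at -0.76, pts at -0.35 and pax7b at 0.32, and all 3 calls held (adjusted p = 8.31e-10, 0.00730 and 9.00e-04 from the DESeq2 statistics). Of the positive genes that did not pass, sox5 then stood at 0.04, pax7a at 0.24 and mycbp2 at -0.032, a turned sign. As mycbp2 is the longest of the 10 genes, the span ranges of positive and negative genes then overlapped.

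**Figure D3:**
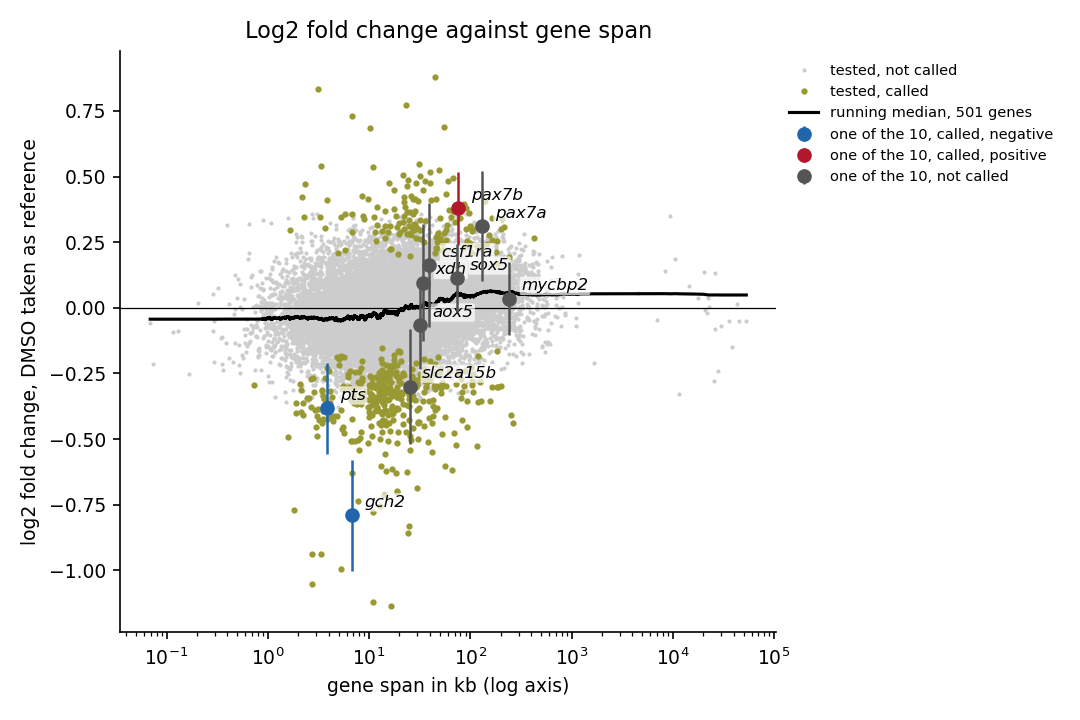
Log2 fold change (y axis, DMSO taken as the reference) against gene span in kb (x axis, log scale) for all tested genes, with the 10 genes labelled with 95% intervals and the running median over ranked genes as a black line. The line climbs from below 0 for short genes to above 0 for long ones, while gch2, pts and pax7b lie away from it.

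The genes are spread over 9 chromosomes, and only gch2 and pts share one. To show whether the surroundings of a gene moved with it, the 2 nearest tested genes on each side were read for each of the 10. Of these 40 neighbours, 2 were called per the authors' deposited table, beside 2.68% of all tested genes, and the values ran from -0.21 to 0.36. With so few calls nothing is read from their places, and neither of the 2 lies beside gch2, pts or pax7b. They are si:ch211-132f19.7 beside xdh, at 0.32 (SE 0.0930; adjusted p = 0.0262 by DESeq2), and fbxl3a beside mycbp2, at 0.36 (SE 0.0732; adjusted p = 1.37e-04), both from the authors' deposited table and picked after seeing their values. The end of gch2 overlaps cript by 188 bp on the other strand, and cript stood at -0.02 (SE 0.0637; adjusted p = 0.941 by DESeq2) per the authors' deposited table.

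Several of the genes are also used elsewhere, csf1ra in macrophages, the pax7 genes in muscle progenitors and brain, and sox5 in cartilage. The 14 listed macrophage genes include 8 that were tested, of which 0 passed the authors' DESeq2 test. Their median was 0.0065, with 4 positive and 4 negative values. An unadjusted p under 0.05 was reached by 1, beside 13.0% of all tested genes. That gene was mpeg1.1, which encodes a pore-forming protein of macrophages, at 0.24 (SE 0.0955; adjusted p = 0.183 by DESeq2) per the authors' deposited table. Of the 6 tested muscle progenitor genes other than pax7a and pax7b, 0 were called, 2 reached an unadjusted p under 0.05 and the median was 0.14 per the authors' deposited table. The fusion gene mymk (0.28, SE 0.101) and the differentiation factor gene myog (0.18, SE 0.0702) are the 2, picked after seeing their values in the authors' deposited table. With all folds shifted to equal group sums both passed (adjusted p = 0.0405 for mymk and 0.0456 for myog from the DESeq2 statistics), and all 6 genes were then positive. The same shift moved the median over all tested genes to 0.046. With the span trend removed instead, 0 of the 6 passed and 5 were positive. The early genes myf5 and myod1, also picked after seeing their values, are the 2 of the 6 with negative deposited values. They stood at -0.04 (SE 0.120) and -0.01 (SE 0.108) per the authors' deposited table, and both turned positive with that shift, to 0.0068 and 0.042. The receptor gene met, picked in the same way, stood at 0.11 (SE 0.0814) per the authors' deposited table. Of 9 tested cartilage genes other than sox5, 0 were called, 4 were positive and 5 negative, and the median was -0.01. The 1 that reached an unadjusted p under 0.05 was sox9a, the highest of the 9. It stood at 0.17 (SE 0.0756; adjusted p = 0.290 by DESeq2) per the authors' deposited table. What part these cells have in the values of the 10 genes was not tested.

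The other genes listed for the lineage gave values nearer to 0 than that of pax7b, the highest of the list. Besides the 6 of the 10 genes in it, the list of xanthophore specification and survival holds 9 tested genes. Of these, 0 passed the authors' DESeq2 test, 5 were positive, 4 were negative and 2 reached an unadjusted p under 0.05. Their values ran from -0.21 to 0.26, with a median of 0.10, against -0.0016 over all tested genes. The 2 are pax3b, at 0.26 (SE 0.116), and sox10, a neural crest and pigment cell factor gene, at 0.14 (SE 0.0676), both picked after seeing their values in the authors' deposited table. Neural crest genes had 8 tested members and 0 called, 2 with an unadjusted p under 0.05, and a median of 0.08, with sox9b at 0.16 (SE 0.0685; adjusted p = 0.253 by DESeq2) per the authors' deposited table. The other of these 2 is again sox10, which is in both lists. The gene pax3a is likewise in the xanthophore list and among the muscle progenitor genes, so the lists are not independent.

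Among the genes listed for the other pigment cells, 1 was called. Of 17 tested melanophore genes, 15 were negative and 0 passed the authors' DESeq2 test, although 9 reached an unadjusted p under 0.05. Over all tested genes 13.0% reached it and 49.4% were positive. The median of the melanophore genes was -0.22, and tyrp1b, a melanin synthesis gene, had the smallest p at -0.34 (SE 0.116; adjusted p = 0.0915 by DESeq2) per the authors' deposited table. Melanin genes are also used in the pigmented epithelium of the eye. Iridophore markers and purine synthesis genes, 16 tested, had a median of -0.06 and 10 negative values. Beside the same shares over all tested genes, 4 reached an unadjusted p under 0.05. Those 4 are the purine synthesis genes gart, atic, pfas and adsl. Of the same route, ppat and paics were negative and impdh1b was positive, at 0.13. Among the other listed genes ednrba, ltk, alx4a, alx4b and pnp4a were positive, and pnp4b, gpnmb, tfec and mpv17 were negative. In the whole list 1 gene was called lower, beside 1.92% of tested genes, per the authors' deposited table. It was gart, an enzyme gene of purine synthesis, the route that also leads to GTP, at -0.39 (SE 0.0963; adjusted p = 0.00477 by DESeq2). With the Wald statistics divided by their spread, gart lost its call (adjusted p = 0.169 from the DESeq2 statistics). Differences between these lists and the 10 genes were not tested.

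**Figure D4:**
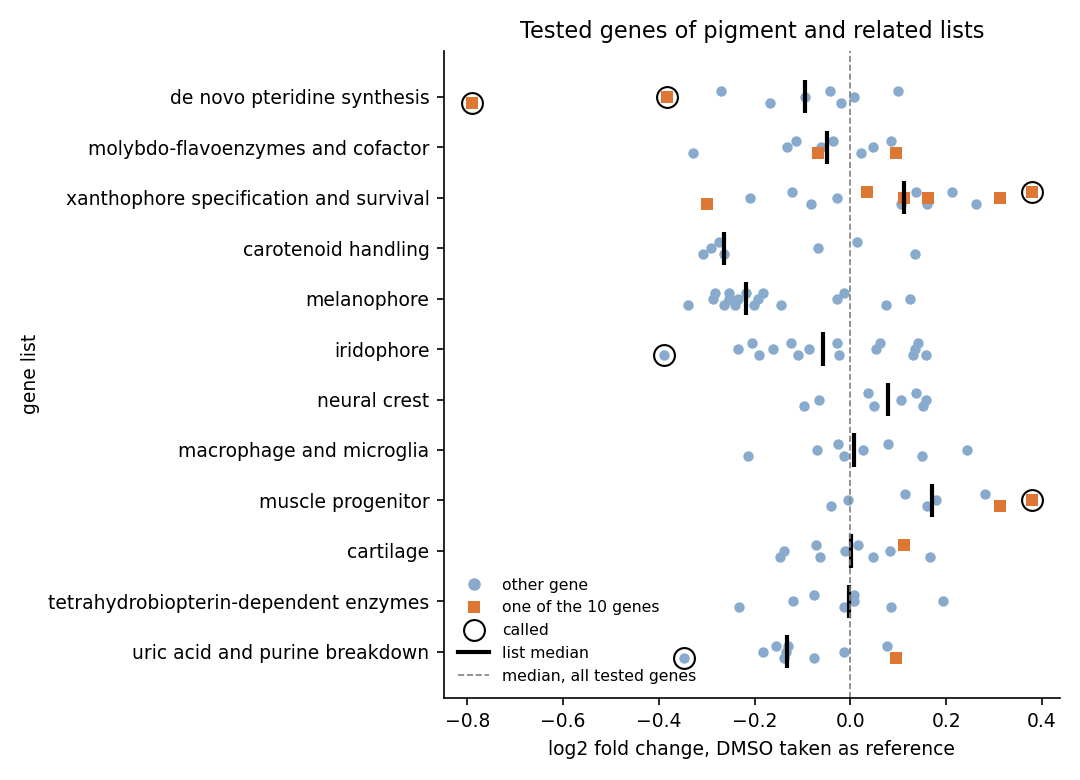
Log2 fold change (x axis, DMSO taken as the reference) of the tested genes of 12 gene lists (y axis), with squares for the 10 genes, rings around called genes and black bars for list medians. Most melanophore genes lie below 0 without a ring, and the rings mark gch2, pts, pax7b (in 2 lists), gart and gda.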

How the data were processed

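The submitters' processing notes name, without versions, DESeq2, featureCounts, STAR, cutadapt and FastQC, and gene models of version 4.3.2 with Ensembl 99 identifiers stand in the file header. No source used here gives the genome build. The deposited base mean is a signal, the mean of normalized counts. The fold change and its SE are deposited log2 values. The Wald score that the authors deposited equals their ratio. The deposited p-value is two-sided, and adjusting it again over the 19257 genes with an adjusted p gave the deposited values within 5.17e-06. The lowest base mean among those genes is 49.1. Depth per library is unknown here; base means sum to 24808364.

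The members and the 12 lists (136 genes, 131 found) were chosen with earlier results of these data known. Named genes are the 10, 6 related genes (the relatives gch1, aox6, csf1rb, slc2a15a and pax3a, and the later pathway gene spra), up to 4 called genes a list by smallest p (or the one with the smallest p), and tested genes overlapping a member; others are said to be picked after seeing their values. Likeness over samples could not be computed from a table without values per pool, and protein and promoter features were not used here. Intervals are 95% normal intervals from the deposited SE. The labels give 5 pools a group from 3 experiments without saying which, so p-values measure the spread between pools, which may share a clutch. Recomputed alternatives used Python 3.11.15, pandas 2.3.3, numpy 2.4.6 and scipy 1.17.1, and matplotlib 3.10.9 drew the figures. The code for the shift, the spread, the span trend and the undoing of shrinkage was run on simulated data. For shrinkage this only inverted the formula that made the data. The changes of filter were not simulated. The alternatives were a shift of all folds by 0.048 to equal group sums, division of the Wald statistics by their spread, no filter or a base mean of at least 100, removal of the running median over span (501 genes, its own median left in the folds), and the inferred shrinkage undone. The group sums were not observed. They were rebuilt from the deposited folds, with each base mean taken as the even average of DMSO and TCPMOH, which may not hold. Leaving out pools was not possible.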

Additional observations from a re-analysis of the deposited data

How the results depend on the processing

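Of 156 recomputed values of 27 named genes, 146 kept their direction and their side of the threshold. The 26 with the inferred shrinkage undone could not do otherwise, because that step keeps the sign and the adjusted p. Division by the spread and the changes of filter leave the folds as deposited, so no direction could turn there. The direction turned for gch1 (0.027) and cript (0.030) after the shift to equal sums, and for cript (0.018) and mycbp2 (-0.032) with the span trend removed; none of these was called. Of the 10 genes, 4 were called after the shift (pax7a added), 2 with the Wald statistics divided by their spread (pts lost), and 3 in the other 4 alternatives. Over all genes 516 were called, and 121 with the statistics divided by their spread. Of all calls 28.3% were higher, and 62.1% (355 higher, 217 lower) after the shift; under the other reading of the numerator these shares are 71.7% and 37.9%. Among the list genes 5 were called, 8 after the shift (4 higher, with pax7a, mymk and myog added) and 2 with the statistics divided by their spread. The calls of gart and gda were lost under that division, and mocs3 (-0.34) and plin6 (-0.33) passed with the span trend removed. After the shift aox5 stood at -0.02 and xdh at 0.14, neither called. No paired analysis was possible because the deposited result has no values per pool, and leaving out a replicate was not possible for the same reason. No reason for any of these changes was tested.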

Other observations

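Carotenoids are the other yellow pigments of xanthophores and reach the larva from the yolk. Of 7 tested genes of carotenoid handling, 0 passed the authors' DESeq2 test, 5 were negative and 4 reached an unadjusted p under 0.05, beside 13.0% of all tested genes, of which 49.4% were positive. Their median was -0.26, against -0.0016 over all tested genes. The list also holds tyrp1a, a melanin synthesis gene, and without it, a choice made after seeing the data, 4 of 6 were negative and the median was -0.17. The smallest p was that of plin6, a lipid droplet coat gene, at -0.31 (SE 0.0986; adjusted p = 0.0604 by DESeq2) per the authors' deposited table. The carotenoid cleavage genes bco1l and bco1, picked after seeing their values, stood at -0.29 (SE 0.109) and -0.28 (SE 0.105) per the authors' deposited table.

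Enzymes that use tetrahydrobiopterin, the cofactor made by the same early steps as the pigments, were split in sign. Of 8 tested, 4 were positive and 4 negative, 0 were called and 1 reached an unadjusted p under 0.05, with a median of -0.0028. It was tph1b, a tryptophan hydroxylase gene of serotonin synthesis, at -0.23 (SE 0.111; adjusted p = 0.330 by DESeq2) per the authors' deposited table. Among 9 tested genes of purine breakdown and salvage other than xdh, 8 were negative, with a median of -0.14. Of these 9 genes 1 was called, beside 2.68% called and 49.4% positive over all tested genes. It was gda, the guanine deaminase gene, at -0.35 (SE 0.0905; adjusted p = 0.00887 by DESeq2) per the authors' deposited table.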
